A study of Mus musculus with 32 samples.

Results

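The genes described are the receptors that mouse gene tables list under the stems Gpr, P2ry, P2rx, S1pr, Adora and Lpar followed by a number: orphan receptors, receptors of extracellular nucleotides and adenosine, and receptors of lysophospholipids. Of 22216 genes measured, 126 carried such a symbol, and the 53 that reached 1 RPKM (reads per kilobase of gene, scaled to the size of the library) in at least 4 of 32 libraries are described here. RNA was sequenced from mouse bone marrow cultures, grown to dendritic cells by the cytokine GM-CSF and harvested on day 9 after LPS, the bacterial lipopolysaccharide that matures such cells, at 1 µg/mL. The groups were dKO cells, from mice lacking both LMP7 and MECL1 (Lmp7-/-Mecl1-/-), and WT cells, from wild-type mice, each at 0, 1, 2 and 6 h of LPS with 4 libraries a group. LMP7 and MECL1, encoded by Psmb8 and Psmb10, are catalytic subunits of the immunoproteasome, the proteasome form of immune cells. All groups share the strain C57BL/6, the day of culture and the harvest, and each culture is a mixture of the cells that GM-CSF lets grow. The labels do not state whether libraries of a group came from separate mice, so a p-value speaks of the spread among libraries, some of it perhaps technical.

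Most of these genes encode receptors with several membrane spans that signal through heterotrimeric G proteins, while the P2rx genes encode channels that open when ATP binds. Dying and activated cells release ATP, UDP and other nucleotides, surface enzymes turn ATP into adenosine, and the P2 and adenosine receptors read the resulting mixture. Sphingosine 1-phosphate and lysophosphatidic acid are made from membrane lipids and guide the movement of leukocytes. Adenosine receptors coupled to Gs raise cyclic AMP and damp inflammatory cytokines in dendritic cells, and the channel encoded by P2rx7 leads to the inflammasome. Several genes that carry a Gpr name (Gpr107, Gpr108, Gpr137, Gpr137b, Gpr155, Gpr172b and Gpr89) encode proteins of the Golgi, of lysosomes or of transport and not classical surface receptors.

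Filter and library checks come before the results. A total of 73 genes with matching symbols lay below the filter, of which 15 were listed at 0 in all 32 libraries. Just outside it were Gpr162 (3 libraries at 1 RPKM or more, highest 2.13 RPKM) and Gpr19 (3 libraries, highest 1.54 RPKM). Just inside it were Gpr4 (4 libraries), Lpar3 and Gpr33 (5 libraries each). Gpr4, Gpr56 and Lpar3 reached 1 RPKM in WT libraries alone and Lpar1 in dKO libraries alone, so a difference between genotypes was needed for them to enter. Gpr97, Gpr34, Gpr33 and P2ry12 reached it in too few dKO libraries to pass without WT. Their differences between genotypes, in counts too, are therefore a description. Gpr4 and Gpr33 reached 1 RPKM in 0 libraries at 0 h (4 and 5 after LPS), and Lpar5, Gpr34, P2ry12 and Lpar3 in 1, 3, 2 and 2 libraries after LPS (7, 6, 5 and 3 at 0 h), so that they entered through a difference between times, and their changes after LPS are a description. A column read as bases aligned to genes summed to 1.27 to 1.872 Gb per library. Psmb8 lay at 2.67 to 7.42 RPKM in dKO libraries and 150 to 312 RPKM in WT libraries, so no library went against its genotype label.

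The time labels of 5 dKO libraries went against their expression. Each library was compared with the 4 WT group means over all genes tested, and 27 of 32 were closest to the WT mean that carries their time. Replicate 2 of dKO 0 h was closest to WT 1 h instead and held 1120 RPKM of Il6, the cytokine gene that LPS switches on. Replicate 2 of dKO 2 h was closest to WT 0 h and held 1.67 RPKM of Il6. The other 3 were labelled dKO 1 h replicate 2 (nearest to 2 h), dKO 2 h replicate 4 (nearest to 6 h) and dKO 6 h replicate 4 (nearest to 2 h). By nearest WT time, replicates 2 and 4 of dKO each still covered 0, 1, 2 and 6 h, in another order than labelled. Whether labels were exchanged was not tested. The 5 libraries were kept under their labels, and tests that rest on dKO libraries are given with all 32 libraries and, for most members described and for the counts by list, without these 5. Group means hold all libraries, so dKO means and the dKO tests with all libraries may mix times. The 5 were picked from the expression of all genes, so a smaller spread without them follows in part from the choice.

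In RPKM the median gene fell after LPS: the median log2 change of the 11154 genes tested was -0.41, -0.48 and -0.62 at 1, 2 and 6 h in dKO cells, and -0.42, -0.73 and -0.65 in WT cells. Lower values of RPKM after LPS therefore have to be read against that shift, and the same results after median-of-ratios scaling, which brings it to about 0, are given beside the main ones. Fold changes are on the scale of log2(RPKM + 0.5), which understates the change of low genes. A gene was called at a Benjamini-Hochberg adjusted p below 0.05 by limma, adjusted over all genes tested, and every adjusted p below is of that kind. In bulk RNA, fewer cells that express a receptor and less of its RNA per cell cannot be told apart.

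Markers of dendritic cells (Itgax, H2-Ab1 and Cd74 among the 8 listed) summed to 6930 to 13200 RPKM in every library, with Flt3 at 2.00 RPKM or less and Cd209a at 19.0 RPKM or less. Markers of B, T, NK and erythroid cells were near 0, with sums of at most 3.30 RPKM in any library. Markers of macrophages, neutrophils and eosinophils were present in all groups, so a receptor level is that of the mixed culture.

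Sequence upstream of the start is shown for 3 receptors lost within 2 h of LPS and 2 that were induced, as examples of either direction. Their courses in time were not alike. It comes from RefSeq (build GRCm38.p6, a later build than the mm9 of the files), as the 250 bases before the annotated start on the gene's strand, 5′ to 3′. Capitals mark a match to one of 5 motifs searched on both strands: NF-kB (GGG, then any 2 letters, then TTTCC), AP-1 (TGANTCA), ISRE (GAAA, then any 2 letters, then GAAA), CRE (TGACGTCA) and ETS (GAGGAAG), none of which overlap in the letters capitalised here. Lpar6 (chr14:73237641-73237890, plus strand) and Gpr84 (chr15:103310439-103310688, minus strand) have no match, S1pr2 (chr9:20976794-20977043, minus strand) has the CRE at position -181 from its start, the second start of Gpr35 (chr1:92978653-92978902, plus strand) has AP-1 at -184 and ETS at -12, and P2rx1 (chr11:72998895-72999144, plus strand) has NF-kB at -20.
Lpar6, lost: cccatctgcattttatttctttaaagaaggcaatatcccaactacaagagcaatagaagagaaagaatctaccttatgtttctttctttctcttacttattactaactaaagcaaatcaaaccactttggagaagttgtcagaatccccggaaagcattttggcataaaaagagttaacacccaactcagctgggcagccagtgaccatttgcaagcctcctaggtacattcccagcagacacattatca
S1pr2, lost: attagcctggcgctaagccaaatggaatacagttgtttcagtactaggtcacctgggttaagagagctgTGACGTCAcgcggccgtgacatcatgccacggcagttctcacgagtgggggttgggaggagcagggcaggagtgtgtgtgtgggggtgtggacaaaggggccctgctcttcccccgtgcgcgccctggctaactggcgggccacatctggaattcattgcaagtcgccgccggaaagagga
Gpr35, lost: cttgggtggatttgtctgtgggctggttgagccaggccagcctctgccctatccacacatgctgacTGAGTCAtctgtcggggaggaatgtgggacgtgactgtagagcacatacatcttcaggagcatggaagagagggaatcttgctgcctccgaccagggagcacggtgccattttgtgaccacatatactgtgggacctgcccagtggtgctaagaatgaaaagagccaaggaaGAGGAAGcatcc
P2rx1, induced: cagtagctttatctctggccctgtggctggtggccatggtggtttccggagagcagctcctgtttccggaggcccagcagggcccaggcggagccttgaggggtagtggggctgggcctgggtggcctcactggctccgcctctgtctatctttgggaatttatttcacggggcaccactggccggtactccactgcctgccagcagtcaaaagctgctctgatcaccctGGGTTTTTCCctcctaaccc
Gpr84, induced: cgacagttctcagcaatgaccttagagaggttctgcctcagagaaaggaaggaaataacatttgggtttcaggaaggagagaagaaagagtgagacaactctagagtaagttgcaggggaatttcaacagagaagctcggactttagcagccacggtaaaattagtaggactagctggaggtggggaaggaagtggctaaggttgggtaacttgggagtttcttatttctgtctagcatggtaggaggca

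A promoter was found for 44 of the 53 members, 39 by symbol and 5 by synonym. The AP-1 letters stood in 4 of 19 quickly lost members with a promoter (Adora3, Gpr15, Gpr35 and P2rx7), in 0 of 9 induced members and in 7.82% of all genes of the table. The ETS letters stood in 6 of 19 lost members, 0 of 9 induced members and 12% of all genes. NF-kB letters stood in 0 of 19 lost members, in 1 of 9 induced members (P2rx1) and in 1.65% of all genes, the ISRE in 2 of 19, 0 of 9 and 3.46%, and the CRE in 1 of 19, 0 of 9 and 1.77%. The median GC content of the promoters was 55.2% for lost members, 61.2% for induced members and 52.4% for all promoters. These matches are a description of the letters in this window.

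With all 32 libraries, receptors of the set were called lower in WT cells after LPS about as often as genes at large. At 1 h 24 of 53 members were called lower and 11 higher, where 45.5% and 6.84% of all genes were. At 2 h 36 were lower (68.5% of all genes) and 10 higher (11.2%), and at 6 h 32 were lower (60.9%) and 10 higher (14.9%). By size, 16, 24 and 24 members were called at least 2-fold lower at 1, 2 and 6 h, where 12.2%, 35.7% and 34.3% of all genes were. A further 7, 7 and 8 members were called at least 2-fold higher (3.79%, 6.28% and 8.30% of all genes). The median log2 change of the members was -0.49, -0.91 and -0.96. The 3 comparisons share the same 0 h libraries. With median-of-ratios scaling the members called higher and lower were 11 and 15 at 1 h, 17 and 20 at 2 h, and 17 and 26 at 6 h, against 15.2% and 13.1%, 30.7% and 31.1%, and 32.6% and 33.8% of all genes.

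The changes in WT cells sorted the members. Quickly lost means called lower by at least 2-fold at 1 or 2 h (24 members), induced called higher by at least 2-fold at any time (10 members), late lost by the same thresholds at 6 h only (5 members), and 14 members met none of these. The WT values of a class are therefore a description. The dKO group means took no part in the sorting, but dKO libraries share the fit's estimate of spread with WT, so the dKO tests are not wholly independent of it. Just inside the threshold at 2 h were Gpr55 (-1.02) and Gpr34 (-1.03, log2 change), and just outside Gpr107 (-0.98) and P2ry10 (-0.94). On the induced side Gpr33 at 2 h (1.00, a fitted value that depends on the 0.5 added, as its 0 h libraries are at 0) and P2rx1 at 6 h (1.01) were just inside, and Gpr157 at 6 h (0.99) and Gpr183 at 1 h (0.97) just outside. The plot of responses by member lists the members in the same order for both genotypes.

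**Figure D1:**
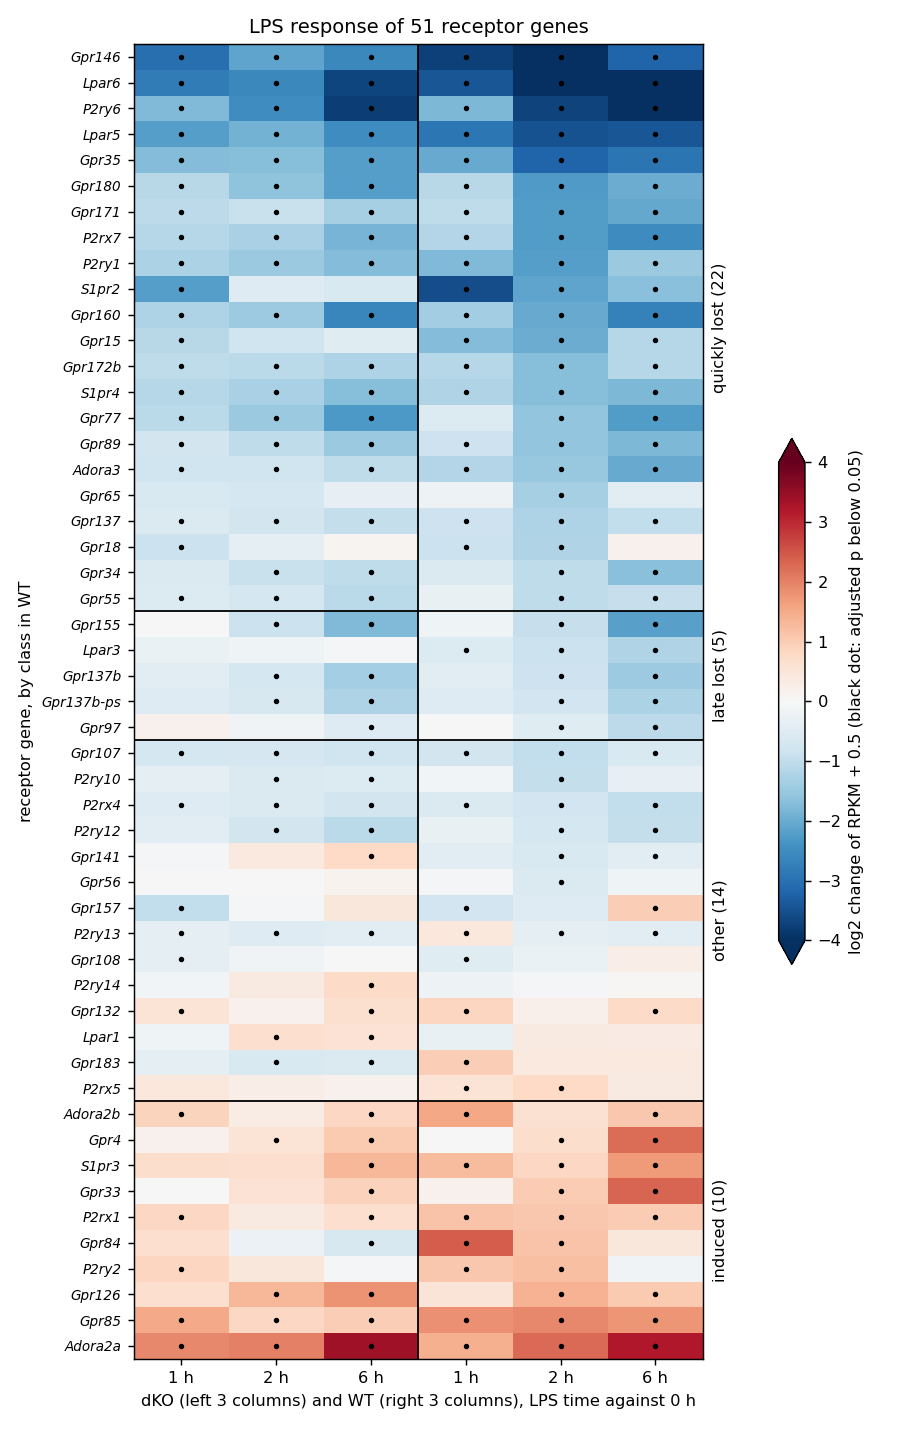
Log2 change of 51 members after LPS against 0 h (limma on log2(RPKM + 0.5), all 32 libraries), dKO cells in the left columns and WT cells in the right, at 1, 2 and 6 h, with colour from -4 to 4 and a dot where the adjusted p is below 0.05. The 22 quickly lost members drawn are called lower at 2 h in WT, and 18 of them in dKO. Lpar5, Gpr34, P2ry12, Lpar3, Gpr4 and Gpr33 entered the set through a difference between times, so their changes are a description.

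Of the 24 quickly lost members 6 were receptors of lysophospholipids, a family with 10 of the 53 members. Lpar6 and Lpar5, both receptors of lysophosphatidic acid, were with Gpr146 and S1pr2 the 4 members with the lowest log2 changes at 1 h in each genotype. In dKO cells Lpar6 had 2.55, 0.396, 2.43 and 3.35 RPKM at 1 h of LPS, against 27.7, 2.97, 25.9 and 27.2 RPKM at 0 h. In WT cells Lpar6 had 1.28, 1, 0.986 and 1.67 RPKM at 1 h of LPS, against 19.4, 15.9, 17.7 and 18.3 RPKM at 0 h. All libraries at 1 h lay below all at 0 h except that replicate 2 of dKO 0 h lay among the 1 h values. Its log2 change at 1 h was -2.79 ± 0.67 (SE, adjusted p = 0.00549) in dKO cells, -3.07 ± 0.16 (adjusted p = 1.19e-14) without the 5 libraries, and -3.41 in WT cells. Lpar6 lies inside Rb1, which averaged 17.1, 14.6, 11.5 and 7.93 RPKM in dKO and 17.8, 16.9, 9.58 and 6.99 RPKM in WT at 0, 1, 2 and 6 h. The libraries do not keep the strand, so reads of Rb1 and Lpar6 cannot be told apart where they overlap.

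Lpar5 followed the same course to a lower floor. In dKO cells Lpar5 had 0.181, 0.0717, 0.359 and 0.126 RPKM at 1 h of LPS, against 5.54, 0.179, 3.79 and 4.68 RPKM at 0 h. In WT cells it had 0.317, 0.286, 0.422 and 0.207 RPKM at 1 h of LPS, against 4.64, 5.62, 6.02 and 5.59 RPKM at 0 h. The groups did not overlap in WT, and in dKO replicate 2 of 0 h lay inside the range of the 1 h libraries. At 2 h Lpar5 was listed at 0 in dKO replicates 1 and 3 and in WT replicates 1 and 2, and dKO replicate 2 was at 2.96 RPKM. Its fitted log2 change in dKO at 1 h was -2.19 ± 0.49 (SE), and -2.84 without the 5 libraries, given with no test because 7 of the 8 libraries by which it entered the set were at 0 h.

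S1pr2, a sphingosine 1-phosphate receptor that restrains cell movement, fell and then returned in part. In WT cells its mean was 17.6, 1.08, 3.7 and 5.22 RPKM at 0, 1, 2 and 6 h. In dKO cells it had 0.609, 2.91, 1.12 and 1.48 RPKM at 1 h of LPS, against 13.1, 1.19, 15.8 and 14 RPKM at 0 h. Replicate 2 lay apart in dKO at both times, low at 0 h and high at 1 h, so that the groups overlapped. The dKO change at 1 h was -2.20 ± 0.48 (SE, adjusted p = 0.00496), and -3.27 ± 0.16 (adjusted p = 9.19e-15) without the 5 libraries. S1pr2 was the single lost member called higher at 2 h than at 1 h in WT cells, by 1.42 on the log2 scale (adjusted p = 0.0254), where 7.24% of all genes were called higher. S1pr4, the sphingosine 1-phosphate receptor of leukocytes, averaged 2.23, 0.717, 0.757 and 0.325 RPKM in dKO and 3.25, 1.11, 0.679 and 0.584 RPKM in WT at the same times. The dKO mean of S1pr4 at 2 h is raised by replicate 2 (2.19 RPKM, others 0.27 to 0.291).

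Gpr34 and Gpr55, receptors of lysophosphatidylserine and lysophosphatidylinositol, were low before LPS and lower after it. Gpr55 averaged 1.46, 0.834, 0.734 and 0.411 RPKM in dKO and 2.83, 2.23, 1.15 and 1.27 RPKM in WT at 0, 1, 2 and 6 h. In dKO cells Gpr34 had 0.104, 1.13, 0.117 and 0.0624 RPKM at 2 h of LPS, against 1.06, 0.85, 1.06 and 0.716 RPKM at 0 h. In WT cells Gpr34 had 0.424, 0.2, 0.523 and 0.914 RPKM at 2 h of LPS, against 1.23, 1.83, 1.84 and 1.22 RPKM at 0 h. Replicate 2 of dKO 2 h was the highest of its group, and no other 2 h library of dKO reached a 0 h value. Gpr34 lies inside the gene Cask, whose mean was 1.69 RPKM in dKO and 1.84 RPKM in WT at 0 h and 4.88 and 5.78 RPKM at 6 h. As the kit does not keep the strand, reads of the host gene and of the receptor cannot be told apart where they overlap.

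Of the nucleotide receptors, P2ry6, which binds UDP, had the lowest log2 change at 2 h in WT cells. P2ry6 had 3.05, 35.2, 3.05 and 2.34 RPKM at 2 h of LPS, against 43.5, 13.6, 41.5 and 49.4 RPKM at 0 h in dKO cells. In WT cells P2ry6 had 3.12, 3.01, 3.01 and 2.95 RPKM at 2 h of LPS, against 45.1, 48, 46.6 and 42.7 RPKM at 0 h. Outside the library labelled dKO 2 h replicate 2, every 2 h library lay at 3.12 RPKM or less and every 0 h library at 13.6 RPKM or more. Its dKO change at 2 h was -2.50 ± 0.54 (SE, adjusted p = 0.00353) and -3.67 ± 0.17 (adjusted p = 1.58e-15) without the 5 libraries, beside -3.71 in WT.

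P2rx7 fell in both genotypes. In dKO cells P2rx7 had 1.66, 11.9, 1.94 and 2.77 RPKM at 2 h of LPS, against 9.72, 4.34, 11.1 and 12.9 RPKM at 0 h. In WT cells it had 1.07, 0.863, 1.15 and 1.08 RPKM at 2 h of LPS, against 7.17, 6.33, 6.39 and 7.17 RPKM at 0 h. The WT groups were apart, and in dKO replicate 2 was low at 0 h and high at 2 h. The dKO change at 2 h was -1.30 ± 0.36 (SE, adjusted p = 0.00523), and -2.35 ± 0.15 (adjusted p = 3.25e-13) without the 5 libraries. P2ry1, an ADP receptor, averaged 3.1, 1.01, 1.14 and 0.564 RPKM in dKO and 3.49, 0.691, 0.364 and 0.921 RPKM in WT at 0, 1, 2 and 6 h. Its dKO mean at 2 h is raised by replicate 2 (3.6 RPKM, others 0.241 to 0.423). Adora3, the Gi-coupled adenosine receptor and the one lost among the 3 adenosine receptors of the set, averaged 1.65, 0.648, 0.757 and 0.494 RPKM in dKO and 4.1, 1.53, 1.14 and 0.614 RPKM in WT.

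Gpr146, an orphan receptor known for its part in blood cholesterol, had the lowest log2 change of the members at 2 h in WT cells on the log2(RPKM + 0.5) scale, while by mean RPKM Lpar5 and Lpar6 kept a smaller share of their 0 h level (0.728% and 2.45%, against 2.65% for Gpr146). Gpr146 had 0.821, 21.9, 0.736 and 1.63 RPKM at 2 h of LPS, against 23.9, 1.37, 24.2 and 22.8 RPKM at 0 h in dKO cells. In WT cells Gpr146 had 0.699, 0.446, 0.651 and 0.767 RPKM at 2 h of LPS, against 23.5, 26, 24.4 and 23 RPKM at 0 h. In dKO, replicate 2 of 0 h had the level of stimulated cells and replicate 2 of 2 h that of resting cells, and the other libraries of each group lay together. Its dKO change at 2 h was -2.10 ± 0.66 (SE, adjusted p = 0.00958), -1.68 (adjusted p = 0.0504) without dKO 2 h replicate 3, and -4.24 ± 0.14 (adjusted p = 1.37e-18) without the 5, beside -4.44 in WT. Gpr146 lies inside 3110082I17Rik, which averaged 11.1 RPKM in dKO and 12.4 RPKM in WT at 0 h and 1.08 and 1.02 RPKM at 6 h.

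Gpr35, a receptor of kynurenic acid and other ligands, fell within 1 h and further by 2 h. It had 1.7, 13.3, 1.53 and 2.21 RPKM at 2 h of LPS, against 15.3, 3.33, 15.9 and 18.4 RPKM at 0 h in dKO cells. In WT cells it had 1.27, 0.995, 1.22 and 1.52 RPKM at 2 h of LPS, against 17, 15.4, 13.9 and 15.3 RPKM at 0 h. Apart from the library labelled dKO 2 h replicate 2, all 2 h values were at 2.21 RPKM or less. At 2 h the dKO change was -1.70 ± 0.44 (SE, adjusted p = 0.00395) and -3.01 ± 0.14 (adjusted p = 7.74e-16) without the 5 libraries.

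**Figure D2:**
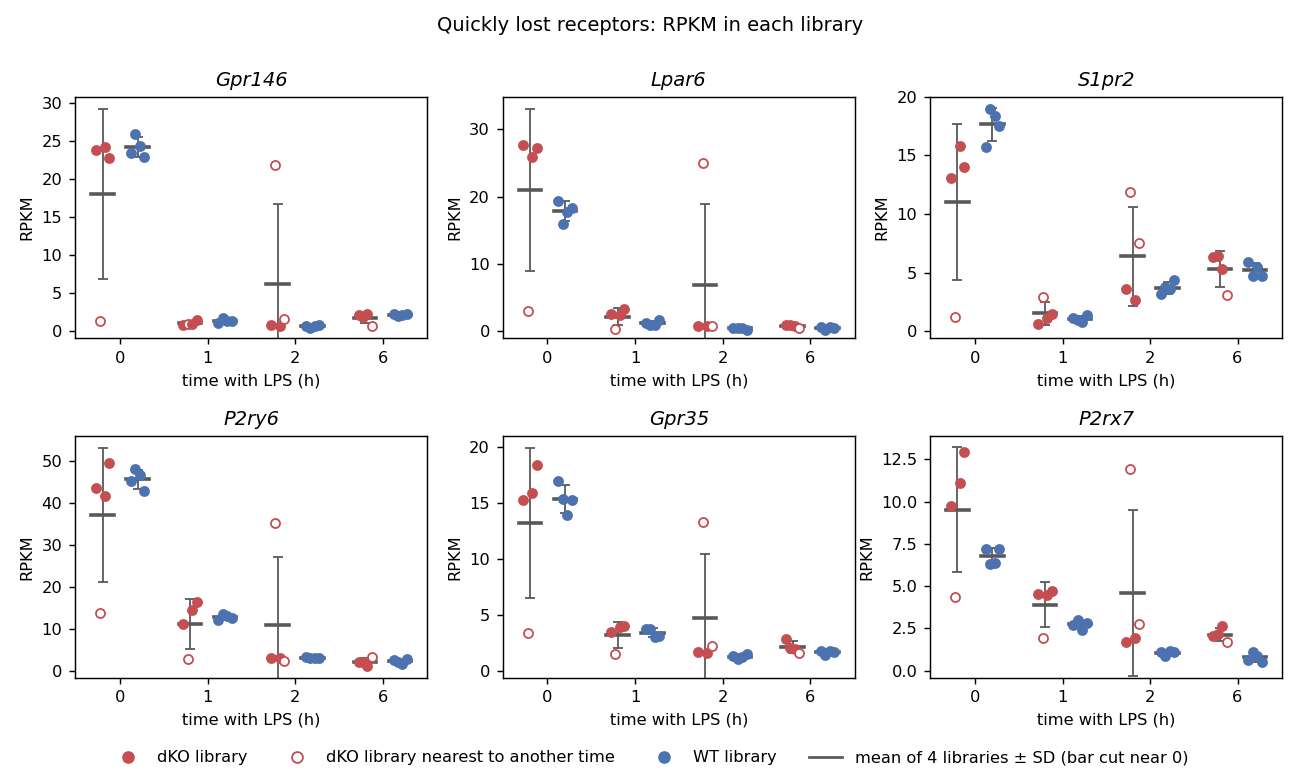
RPKM of 6 quickly lost members (Gpr146, Lpar6, S1pr2, P2ry6, Gpr35 and P2rx7) in each library at 0, 1, 2 and 6 h of LPS, dKO beside WT, with the mean ± SD of 4 libraries. Open circles are dKO libraries nearest to another WT time than labelled: at 2 h P2ry6 is at 35.2 RPKM in one of them and at 3.12 RPKM or less in the other libraries.

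Gpr171, an orphan receptor and the most abundant lost member after P2ry6, averaged 33.1, 15.6, 18.9 and 12.4 RPKM in dKO and 42.9, 21, 8.68 and 9.88 RPKM in WT at 0, 1, 2 and 6 h. Gpr160, an orphan receptor, was lowest at 6 h, with 1.11, 1.57, 2.25 and 6.84 RPKM in dKO libraries and 2.86, 2.52, 2.39 and 3.12 RPKM in WT libraries, against means of 17.7 and 20.5 RPKM at 0 h. Gpr77, a complement receptor, had 0, 0.0163, 0 and 0.262 RPKM in dKO at 6 h and 0.0284, 0.043, 0.0413 and 0.128 RPKM in WT, against 1.49 to 3.19 and 1.75 to 2.94 RPKM at 0 h. Both had all 6 h libraries below all 0 h libraries in each genotype. The dKO changes at 6 h were -2.61 ± 0.41 (SE, adjusted p = 8.93e-06) for Gpr160 and -2.31 ± 0.33 (SE, adjusted p = 6.05e-06) for Gpr77, and without the 5 libraries -3.30 ± 0.16 (adjusted p = 8.79e-16) and -2.62 ± 0.15 (adjusted p = 1.88e-14).

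A few lost members came back by 6 h. Gpr18 and Gpr65 were among those called higher at 6 h than at 2 h in WT cells, by 1.37 and 0.90 on the log2 scale, where 26.1% of all genes were called higher. Gpr65 is a proton-sensing receptor that responds to acid outside the cell. Gpr65 had 12.6, 9.02, 23.6 and 3.61 RPKM at 6 h in dKO cells, against 5.67, 10.7, 6.32 and 8.33 RPKM at 2 h. In WT cells Gpr65 had 12.2, 11, 14.6 and 14.7 RPKM at 6 h, against 6.09, 5.29, 8.06 and 8.06 RPKM at 2 h. The groups were apart in WT and overlapped in dKO, where neither Gpr65 nor any other member was called between 6 and 2 h (limma called 0 of 11154 genes, with 3354 at an unadjusted p below 0.05, 13 of them members). Without the 5 libraries 37.2% of all genes were called higher and 30.1% lower between these times in dKO cells, and 21 and 12 members. Gpr65 was called at none of the 3 times in dKO cells against 0 h with all libraries. Only Gpr34 was called lower at 6 h than at 2 h in WT among the lost members (19.5% of all genes were).

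The other lost members were low or changed less. Gpr180 averaged 5.59, 2.48, 2.04 and 0.814 RPKM in dKO and 6.55, 2.83, 0.98 and 1.26 RPKM in WT at 0, 1, 2 and 6 h, and Gpr89, the Golgi pH regulator, 9.14, 5.21, 4.78 and 2.93 and 9.64, 5.21, 2.94 and 2.41 RPKM. The dKO mean of Gpr180 at 2 h is raised by replicate 2 (5.5 RPKM, others 0.551 to 1.15). Gpr172b, a riboflavin transporter, averaged 5.63, 2.58, 2.75 and 2.01 RPKM in dKO and 6.57, 2.75, 1.69 and 2.68 RPKM in WT. Gpr137, a lysosomal membrane protein, averaged 13.1, 8.49, 7.8 and 6.35 RPKM in dKO and 14.5, 7.87, 5.92 and 7.14 RPKM in WT, and it overlaps Bad by 596 bases. Gpr18, inside Ubac2, averaged 1.96, 0.862, 1.42 and 2.2 and 2.46, 1.2, 0.836 and 2.9 RPKM. Gpr15, known as a homing receptor of T cells, differed between genotypes and is given with that comparison.

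Among the induced members were both Gs-coupled adenosine receptors. Adora2a was called higher at each time in both genotypes and was highest at 6 h. In dKO cells it had 71.7, 81.9, 75.5 and 43.1 RPKM at 6 h of LPS, against 3.79, 16.2, 6 and 2.95 RPKM at 0 h. In WT cells it had 83.3, 72.9, 74.3 and 78.4 RPKM at 6 h of LPS, against 7.91, 6.39, 9.7 and 7.88 RPKM at 0 h. No 6 h library overlapped a 0 h library in either genotype, although dKO 0 h replicate 2 was high and dKO 6 h replicate 4 low in its group. The dKO change at 6 h was 3.40 ± 0.52 (SE, adjusted p = 7.45e-06), 4.07 ± 0.15 (adjusted p = 3.31e-18) without the 5 libraries and 3.21 in WT. In WT the call at 1 h ended without any one of 3 libraries (WT 0 h replicate 2, WT 1 h replicate 1 or WT 1 h replicate 3), at an adjusted p of 0.0612, 0.052 and 0.0551.

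Adora2b, the adenosine receptor of low affinity, peaked at 1 h. In dKO cells Adora2b had 40.7, 18.9, 31.3 and 32.8 RPKM at 1 h of LPS, against 11.7, 42.1, 13.2 and 9.34 RPKM at 0 h. In WT cells Adora2b had 39.1, 43.6, 34.9 and 35.3 RPKM at 1 h of LPS, against 12.9, 11.4, 13.1 and 12.9 RPKM at 0 h. The WT groups were apart, while dKO 0 h replicate 2, at the level of stimulated cells, made the dKO groups overlap. The dKO change at 1 h was 0.90 ± 0.34 (SE, adjusted p = 0.0313), a call that ended without any one of 6 libraries, and 1.58 ± 0.14 (adjusted p = 2.53e-10) without the 5. At 2 h its means were 21.9 RPKM in dKO and 19.4 RPKM in WT, neither called against 0 h with all libraries. Without the 5 libraries all 10 induced members, Adora2b included, were called higher at 2 h in WT.

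Gpr84, a receptor of medium-chain fatty acids, rose in WT cells and was back near its 0 h level by 6 h. In dKO cells Gpr84 had 28.9, 10.4, 17 and 19 RPKM at 1 h of LPS, against 7.61, 24.3, 10.6 and 7.01 RPKM at 0 h. In WT cells Gpr84 had 46.4, 47.6, 43.1 and 48.7 RPKM at 1 h of LPS, against 7.74, 7.71, 9.07 and 8.32 RPKM at 0 h. Every WT library at 1 h was above every dKO library at 1 h. Its dKO change at 1 h, 0.67 ± 0.29 (SE, adjusted p = 0.0518), was not called with all libraries, and was 1.29 ± 0.17 (adjusted p = 2.76e-07) without the 5. At 6 h it averaged 7.29 RPKM in dKO and 11.6 RPKM in WT, and the dKO change of -0.63 against 0 h (adjusted p = 0.0483) lost its call without any one of 25 libraries.

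P2ry2, the receptor of ATP and UTP, lies 32.2 kb from P2ry6 on chromosome 7 (mm9) and moved the other way. In dKO cells P2ry2 had 7.66, 8.36, 6.82 and 7.11 RPKM at 1 h of LPS, against 3.42, 5.66, 3.79 and 3.02 RPKM at 0 h. In WT cells P2ry2 had 7.13, 5.98, 7.11 and 6.36 RPKM at 1 h of LPS, against 2.65, 2.9, 2.97 and 3.11 RPKM at 0 h. All 1 h libraries were above all 0 h libraries of their genotype. The dKO change was 0.87 ± 0.28 (SE, adjusted p = 0.0167) at 1 h and -0.06 ± 0.28 (SE, adjusted p = 0.844) at 6 h, by when WT was at -0.14. The 1 h call ended without any one of 3 libraries, and the change was 0.98 ± 0.10 (adjusted p = 8.79e-09) without the 5. P2rx1, an ATP-gated channel, averaged 1.28, 2.64, 1.74 and 2.27 RPKM in dKO and 1.62, 4.11, 3.91 and 3.73 RPKM in WT at 0, 1, 2 and 6 h, with a dKO change at 1 h of 0.82 ± 0.20 (SE, adjusted p = 0.00579), or 0.99 ± 0.19 (adjusted p = 6.2e-05) without the 5.

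S1pr3 rose as S1pr2 and S1pr4, receptors of the same lipid, fell. In dKO cells S1pr3 had 12, 11.1, 13.2 and 4.4 RPKM at 6 h of LPS, against 3.14, 5.8, 3.84 and 1.92 RPKM at 0 h. In WT cells S1pr3 had 21.1, 19.5, 16.7 and 17.1 RPKM at 6 h of LPS, against 6.25, 5.18, 5.31 and 4.57 RPKM at 0 h. WT groups did not overlap, and in dKO the library labelled 6 h replicate 4 fell among the 0 h values. In dKO cells the change at 6 h was 1.33 ± 0.30 (SE, adjusted p = 0.000366), and 1.90 ± 0.15 (adjusted p = 1.54e-11) without the 5 libraries.

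Gpr85, an orphan receptor best known from brain, was called higher at all 3 times in both genotypes. In dKO cells Gpr85 had 23.6, 27.3, 26.4 and 24.9 RPKM at 1 h of LPS, against 5.76, 21.1, 6.57 and 7.01 RPKM at 0 h. In WT cells Gpr85 had 22.4, 24.5, 20.6 and 23.3 RPKM at 1 h of LPS, against 6.48, 6.18, 5.86 and 5.33 RPKM at 0 h. The groups did not overlap, with dKO 0 h replicate 2 near the 1 h values. Its dKO change at 1 h was 1.5 ± 0.34 (SE, adjusted p = 0.00496) and 1.88 ± 0.10 (adjusted p = 2.1e-14) without the 5 libraries. In dKO its 2 h call ended without any one of 6 libraries, and its 6 h call without dKO 0 h replicate 1 or dKO 6 h replicate 4. Gpr126, an adhesion receptor known from myelination, averaged 4.51, 8.55, 14.5 and 17.1 RPKM in dKO and 8.91, 12.8, 24.3 and 19 RPKM in WT at 0, 1, 2 and 6 h, with a dKO change at 6 h of 1.8 ± 0.36 (SE, adjusted p = 9.31e-05), or 1.74 ± 0.17 (adjusted p = 7.08e-10) without the 5.

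The other induced members were all but silent before LPS. Gpr33, an orphan receptor, was listed at 0 in all 8 libraries at 0 h. At 6 h it had 0.422, 0.579, 0.91 and 0.0755 RPKM in dKO libraries and 2.27, 1.41, 1.9 and 2.53 RPKM in WT libraries, and all WT values were above all dKO values. Gpr4, a proton-sensing receptor, had 0.968, 0.878, 0.505 and 0.199 RPKM at 6 h of LPS, against 0, 0, 0.0354 and 0.0959 RPKM at 0 h in dKO cells. In WT cells Gpr4 had 2.67, 3.23, 2.17 and 2.4 RPKM at 6 h of LPS, against 0.229, 0.13, 0.107 and 0.204 RPKM at 0 h. Its 6 h libraries lay above its 0 h libraries in both genotypes, and the fitted log2 change was 1.04 ± 0.21 (SE) in dKO, 1.22 without the 5 libraries, and 2.22 in WT. Gpr4 entered the set through its 4 WT libraries at 6 h and Gpr33 through the same 4 and 1 dKO library at 2 h, so their differences at 6 h, between times and between genotypes, are a description with no test.

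**Figure D3:**
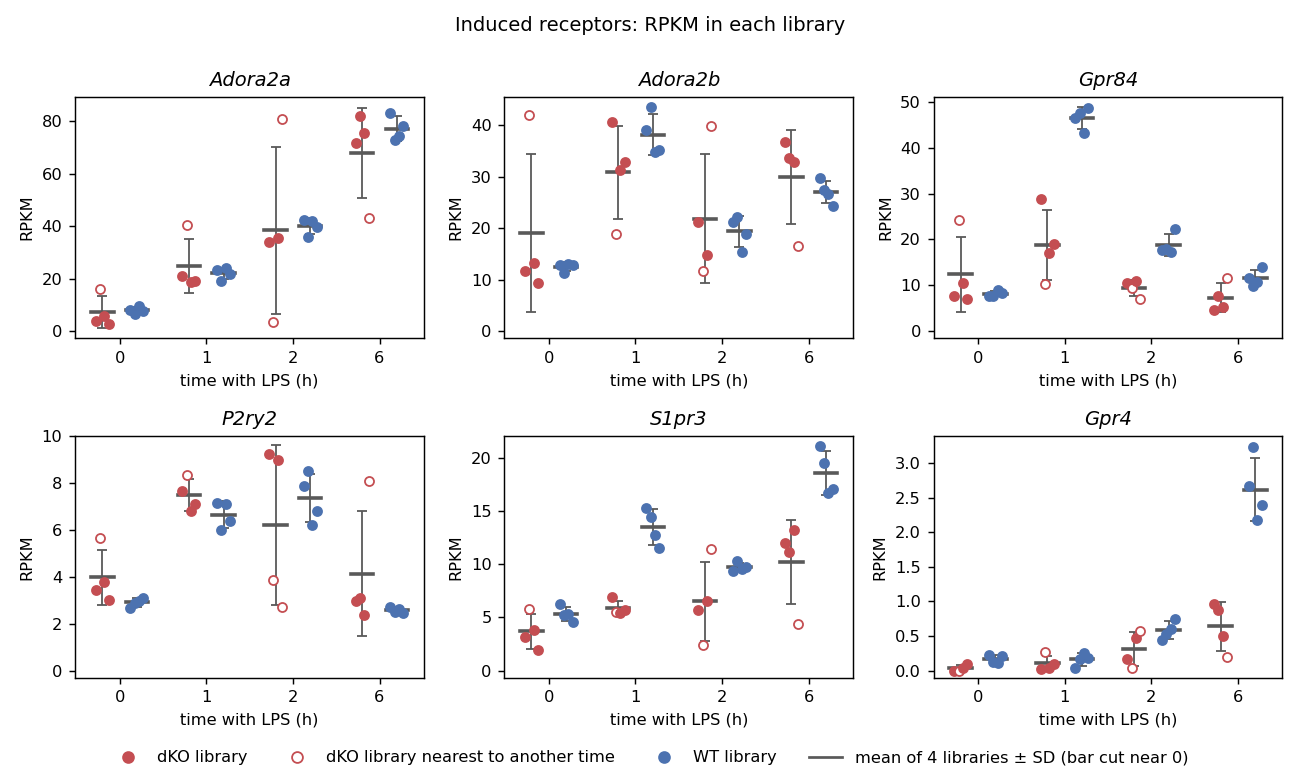
RPKM of 6 induced members (Adora2a, Adora2b, Gpr84, P2ry2, S1pr3 and Gpr4) in each library at 0, 1, 2 and 6 h of LPS, dKO beside WT, with the mean ± SD of 4 libraries and open circles for dKO libraries nearest to another WT time than labelled. Gpr84 peaks at 1 h, between 43.1 and 48.7 RPKM in WT, while Adora2a and S1pr3 are highest at 6 h.

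Lost and induced members were then set side by side. Before LPS the lost members had a median level of 7.44 RPKM in dKO and 6.67 RPKM in WT (range 1.35 to 45.6 in WT), and the induced members 4.24 RPKM in dKO and 5.65 RPKM in WT (0 to 12.6 in WT). Of the 24 lost members in WT cells, 16 had lost at least 2-fold by 1 h and the other 8 by 2 h, and 14 were lowest at 2 h, 9 at 6 h and 1, S1pr2, at 1 h. The 10 induced members had their highest WT mean at 1 h (3 members), 2 h (3) or 6 h (4). At 6 h 19 of 24 lost members and 8 of 10 induced members were still changed by at least 2-fold; the others included Gpr65, Gpr18, Gpr137 and Gpr55 on the lost side and were Gpr84 and P2ry2 on the induced side.

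The median lost member kept 40.1%, 45.9% and 25.2% of its 0 h mean at 1, 2 and 6 h in dKO cells (40.9%, 19.9% and 22.1% without the 5 libraries), and 41.1%, 20.9% and 18.6% in WT cells. The median induced member with RNA at 0 h (9 members) stood at 190%, 178% and 180% in dKO cells (257%, 267% and 301% without the 5), and at 254%, 253% and 231% in WT cells. Lost members at 1 RPKM or more in all 4 libraries numbered 19, 12, 13 and 13 at 0, 1, 2 and 6 h in dKO cells and 24, 15, 9 and 14 in WT cells. Adenosine receptors (1 lost, 2 induced), lysophospholipid receptors (6 and 1), P2Y receptors (2 and 1) and P2X channels (1 and 1) each had members on both sides, whereas the Gpr genes of proteins other than classical receptors, Gpr180 included, had 4 lost and 0 induced. Their genes span a median of 12.1 kb (lost) and 14.8 kb (induced) in mm9.

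In dKO cells most lost members were called lower at each time, and 8 of the 10 induced members were called higher at 6 h. Of the 24 lost members, 21, 20 and 20 were called lower at 1, 2 and 6 h in dKO cells and 0 higher, where 44.1%, 53.8% and 60.2% of all genes were lower. The 24 include Lpar5 and Gpr34, which entered the set through 0 h, so for them a lower value after LPS is a description. Of the 10 induced members, 5, 4 and 8 were called higher, where 5.82%, 9.17% and 14.7% of all genes were, and 0, 0 and 1 (Gpr84) lower, counts that include Gpr4 and Gpr33. The median change of all 53 members in dKO was -0.53, -0.64 and -0.63, beside the medians of all genes given above. Without the 5 libraries 22, 24 and 22 lost members were lower (67.8%, 72.3% and 68.5% of all genes) and 7, 8 and 8 induced members higher (9.49%, 13.8% and 18.8%). With median-of-ratios scaling 12, 16 and 20 lost members were lower in dKO cells and 7, 7 and 8 induced members higher, where 11.1%, 18.5% and 33.8% of all genes were lower and 12.8%, 22.0% and 31.7% higher. The count of lost members called at 1 h was 11 without dKO 0 h replicate 4 and 9 without dKO 1 h replicate 2. The count of induced members was 3 at 1 h without dKO 0 h replicate 1 or replicate 4 and 8 without dKO 2 h replicate 2, and at 2 h it was 2 without dKO 0 h replicate 1 or dKO 2 h replicate 3 and 7 without dKO 0 h replicate 2. Fitted on the dKO 0 h and 2 h libraries alone, limma called 0 lost and 0 induced members at 2 h, with 17 and 2 at an unadjusted p below 0.05.

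The plot of one genotype against the other sets these responses member by member. With all libraries the dKO changes at 2 h lie nearer to 0 than the WT changes, and without the 5 libraries they lie along the line of equal change.

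**Figure D4:**
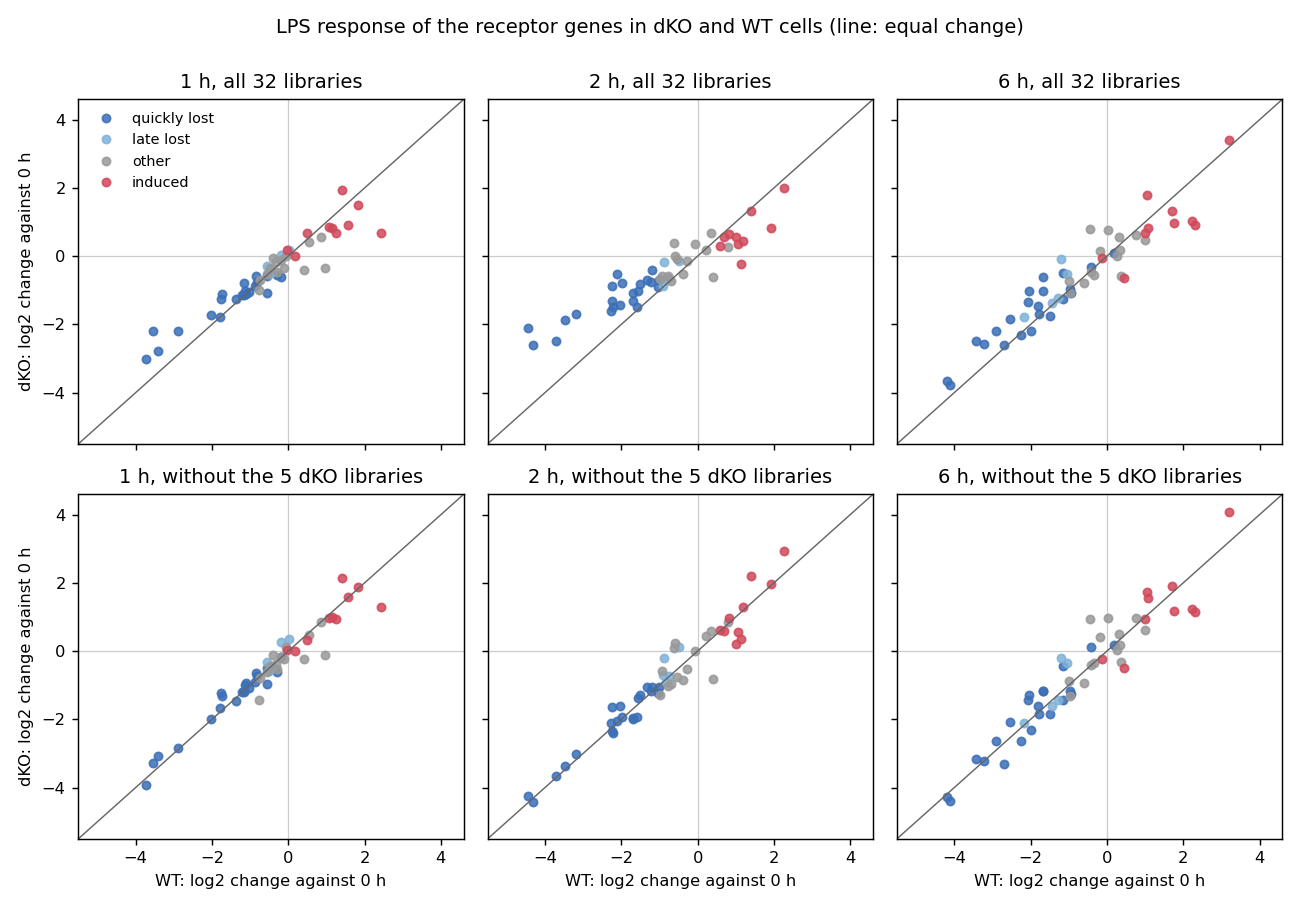
Log2 change of each of 51 members against 0 h in WT cells (horizontal axis) and dKO cells (vertical axis) at 1, 2 and 6 h of LPS, with all 32 libraries in the upper row and without the 5 dKO libraries in the lower row; the line marks equal change. Gpr146 at 2 h is at -2.10 in dKO with all libraries, -4.24 without the 5, and -4.44 in WT.

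Scaling moved the border between loss and no change. With median-of-ratios scaling in WT, 16 of the 24 lost members kept their class, Gpr89, Adora3 and Gpr34 were among those that became late lost, and Gpr65, Gpr18, Gpr137 and Gpr55 met no threshold. P2rx5, Gpr132, Gpr183 and Gpr157 became induced, and Gpr137b, Gpr137b-ps, Lpar3 and Gpr97 were no longer late lost. All 10 induced members stayed induced. On that scale Gpr146 changed by -3.77 at 2 h in WT, Lpar6 by -3.65, P2ry6 by -2.95, Gpr35 by -2.48 and S1pr2 by -1.37, and Adora2a by 3.02.

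Between genotypes at the same time, 9, 13, 14 and 15 of the 53 members were called at 0, 1, 2 and 6 h. Higher in dKO were 2, 2, 7 and 5 members (0.932%, 1.84%, 5.15% and 4.55% of all genes), and lower were 7, 11, 7 and 10 (5.91%, 9.02%, 7.24% and 10.2%). Without the 5 libraries 21, 25, 27 and 30 members were called (26.2%, 39.2%, 33.1% and 46.9% of all genes). The count at 2 h was 8 without WT 2 h replicate 4, and at 6 h it was 9 without WT 6 h replicate 4. At 3 or more of the 4 times, 2 members, Lpar1 among them, were called higher (1.19% of all genes) and Gpr56, P2ry10, Gpr157, Gpr183, Gpr55 and Lpar3 lower (4.72%). At all 4 times the same 2 were higher (0.538%) and Gpr56 and P2ry10 lower (2.21%). Lpar1, Gpr56 and Lpar3 entered the set through a single genotype, so for them the genotype calls, counted here, are a description. The same holds for Gpr97 and Gpr34, which needed WT libraries to enter. Without the 5 libraries 7 members were called higher (5.79% of all genes) and 11 lower (17.4%) at 3 or more times. At all 4 times 7 were then higher (2.88%) and 7 lower (8.51%).

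Lpar1, the most widely expressed receptor of lysophosphatidic acid in other tissues, was higher in dKO cells throughout. At 0 h Lpar1 had 1.97, 1.27, 2.06 and 1.66 RPKM in dKO cells, against 0.28, 0.327, 0.584 and 0.322 RPKM in WT cells. At 6 h it had 2.97, 2.69, 3.03 and 2.49 RPKM in dKO cells, against 0.8, 0.688, 0.679 and 0.261 RPKM in WT cells. No dKO library overlapped a WT library of its time at any of the 4 times. The fitted difference was 1.35 ± 0.19 (SE) at 0 h and 1.5 ± 0.19, 1.66 ± 0.19 and 1.60 ± 0.19 at 1, 2 and 6 h, and 1.46, 1.37, 1.70 and 1.65 without the 5 libraries. Lpar1 entered the set through dKO libraries alone, so this difference is a description with no test.

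Lpar3, another receptor of the same lipid, went the other way. At 0 h Lpar3 had 0.286, 0.217, 0.518 and 0.113 RPKM in dKO cells, against 0.685, 2.23, 2.28 and 1.26 RPKM in WT cells. The WT libraries were all above the dKO libraries, over a wide range in WT. The fitted difference was -1.37 ± 0.23 (SE) at 0 h and -1.09 ± 0.23 (SE) at 1 h. Lpar3 entered the set through 5 WT libraries of these times, so both are a description with no test. At 2 h the fitted difference was -0.69 ± 0.23 (SE), also a description, and its call ended without any one of 21 libraries. By 6 h the values met, with 0.102 to 0.376 RPKM in dKO and 0.244 to 0.439 RPKM in WT (-0.25 ± 0.23 SE). Lpar5 and Lpar6 were not called between genotypes with all libraries. Without the 5 Lpar6 was higher in dKO at all 4 times, by 0.59, 0.92, 0.48 and 0.51.

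Gpr56, an adhesion receptor, was lower in dKO cells at each time. At 0 h Gpr56 had 0.124, 0.361, 0.16 and 0.0664 RPKM in dKO cells, against 1.78, 1.34, 1.56 and 1.7 RPKM in WT cells. All dKO libraries were lower, at a fitted log2 difference of -1.64 ± 0.17 (SE) at 0 h and -1.32 ± 0.17 (SE) at 6 h, or -1.76 and -1.17 without the 5 libraries. Gpr97, 3.48 kb from Gpr56, was also lower at 0 h, with 0.616, 1.09, 0.821 and 0.53 RPKM in dKO cells, against 1.76, 1.36, 1.62 and 1.42 RPKM in WT cells and no overlap. Its fitted difference was -0.71 ± 0.18 (SE), or -0.82 without the 5. That call ended without dKO 0 h replicate 4 or WT 0 h replicate 1. Gpr56 entered the set through WT libraries alone. Gpr97 reached 1 RPKM in 1, 1, 0 and 0 dKO libraries at 0, 1, 2 and 6 h, against 4, 4, 2 and 0 WT libraries, and also needed WT to enter. Both differences are therefore a description with no test.

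P2ry10, a receptor of lysophosphatidylserine, was lower in dKO cells before and after LPS. At 0 h P2ry10 had 10.1, 9.93, 13.7 and 8.42 RPKM in dKO cells, against 19.5, 21.6, 23.8 and 21.6 RPKM in WT cells. At 6 h it had 7.4, 6.65, 11.3 and 4.28 RPKM in dKO cells, against 14.5, 15.9, 18.4 and 19.5 RPKM in WT cells. The groups did not overlap at either time, with differences of -1.02 ± 0.20 (SE, adjusted p = 0.00103) and -1.22 ± 0.20 (SE, adjusted p = 7.37e-05), or -1.0 and -1.0 without the 5. At 2 h the difference was -0.67 ± 0.20 (SE, adjusted p = 0.0244), a call that ended without any one of 3 libraries. Gpr34, which binds the same lipid, was not called between genotypes with all libraries. Without the 5 its fitted difference at 2 h was -0.69 ± 0.25 (SE). Gpr34 needed WT libraries to enter the set, so this is a description with no test.

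Gpr183 (EBI2), which guides dendritic cells along oxysterol gradients, was called higher at 1 h of LPS in WT cells (0.97 ± 0.20 SE, adjusted p = 0.000787) and not in dKO cells (-0.35 ± 0.20 SE, adjusted p = 0.138). At 1 h Gpr183 had 16, 7.33, 15.7 and 13.9 RPKM in dKO cells, against 25.7, 27.2, 24.2 and 25.9 RPKM in WT cells. At 0 h it had 16.2, 16.3, 16.4 and 16.5 RPKM in dKO cells, against 13.2, 13.2, 13.6 and 11.8 RPKM in WT cells. The dKO libraries were all above WT at 0 h and all below it at 1, 2 and 6 h. In dKO cells it was called lower than 0 h at 2 and 6 h, at -0.60 and -0.57, which came to -0.11 and 0.05 with scaling. The difference was 0.33 ± 0.20 (SE, adjusted p = 0.396) at 0 h and -0.99 ± 0.20 (SE, adjusted p = 0.00123), -0.66 ± 0.20 (SE, adjusted p = 0.03) and -0.63 ± 0.20 (SE, adjusted p = 0.0355) at 1, 2 and 6 h, or 0.33, -0.74, -0.88 and -0.38 without the 5, and the calls at 2 and 6 h each ended without any one of 4 libraries. Its response to LPS differed between genotypes by -1.32 ± 0.29 (SE, adjusted p = 0.175) at 1 h, not called, by -1.07 ± 0.14 (adjusted p = 2.71e-05) without the 5 libraries, and by -1.32 (adjusted p = 0.0272) with scaling. Gpr183 and Gpr18 both lie inside Ubac2, which averaged 15.7, 11.3, 9.47 and 7.82 RPKM in dKO and 17.2, 14, 8.58 and 8.49 RPKM in WT.

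Gpr157 and Gpr55 were lower in dKO cells at 3 times each. Gpr157, an orphan receptor, had 4.51, 3.92, 5.64 and 1.14 RPKM in dKO cells, against 11.9, 10, 12 and 14.5 RPKM in WT cells at 6 h. The groups did not overlap, with a difference of -1.70 ± 0.30 (SE, adjusted p = 0.000208), or -1.28 ± 0.14 (adjusted p = 6.14e-08) without the 5. Its differences were -1.17 ± 0.30, -1.39 ± 0.30 and -0.74 ± 0.30 at 0, 1 and 2 h, that at 2 h not called and that at 0 h at an adjusted p of 0.0505 with scaling. Gpr55 ranged over 0.592 to 1.18 RPKM in the 4 dKO libraries and 1.77 to 2.73 RPKM in the 4 WT libraries at 1 h, again with no overlap (-1.04 ± 0.22 SE, adjusted p = 0.00153). The 0 h calls ended for Gpr157 without dKO 0 h replicate 2 (adjusted p = 0.0866) or WT 0 h replicate 3 (0.0513), and for Gpr55 without any one of 4 libraries. Without the 5 libraries each of the 7 members plotted as called at 3 or more times kept the sign of its difference at all 4 times. The one call lost was that of Lpar3 at 2 h, at -0.68, and the calls of Lpar3 are a description.

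**Figure D5:**
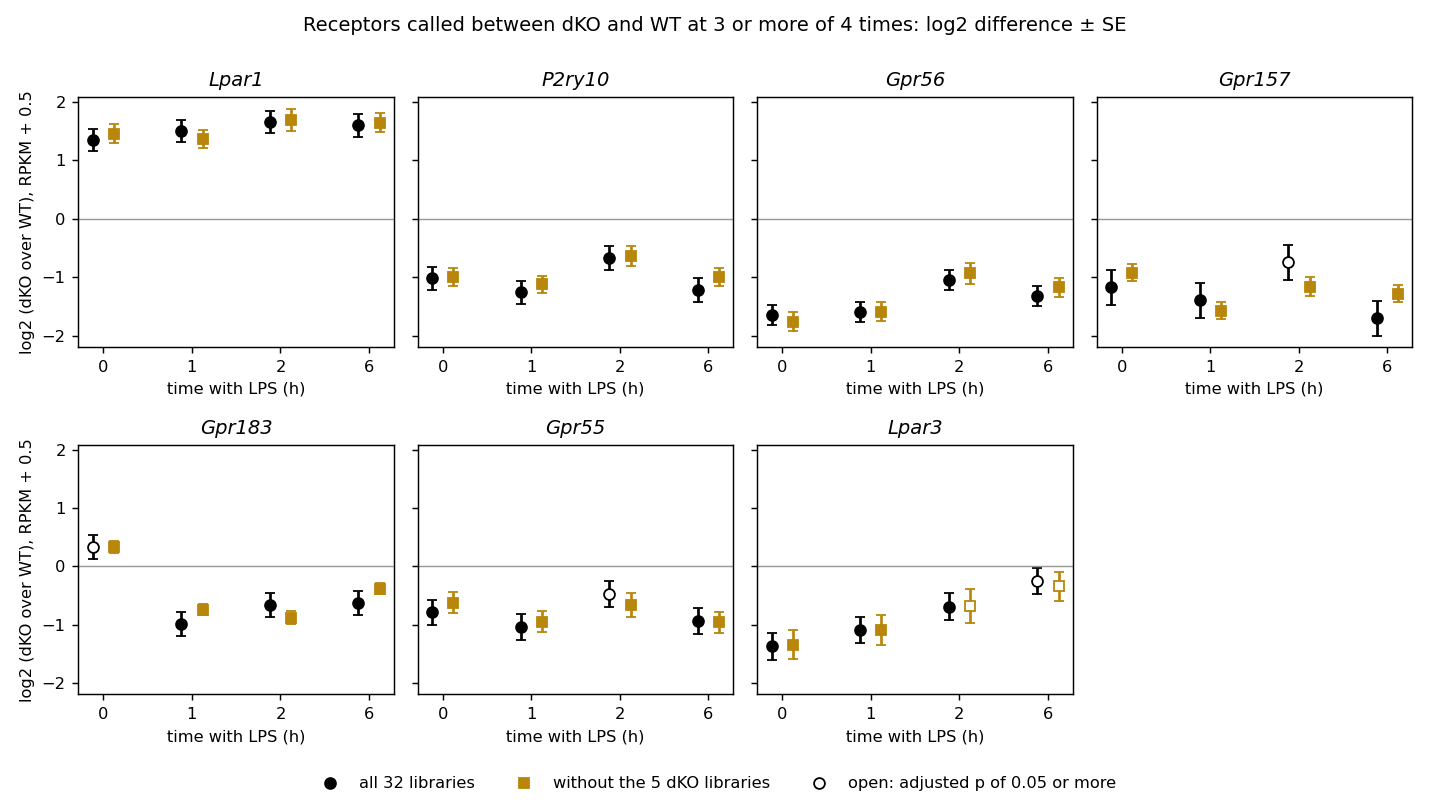
Log2 difference of dKO over WT, ± SE, at 0, 1, 2 and 6 h of LPS for 7 members called at 3 or more of the 4 times (limma on log2(RPKM + 0.5)). Black points are from all 32 libraries and gold squares from the fit without the 5 dKO libraries, and open symbols were not called. Lpar1 lies above 0 at each time and Gpr56 and P2ry10 below it. Lpar1, Gpr56 and Lpar3 entered the set through a single genotype, so their calls are a description.

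The ATP-gated channels differed in both directions between genotypes. P2rx7 and P2rx4, neighbours on chromosome 5, were higher in dKO at 6 h. P2rx7 had 2.02, 2.17, 2.64 and 1.67 RPKM in dKO cells, against 0.637, 1.09, 0.87 and 0.506 RPKM in WT cells at 6 h. The groups did not overlap (1.05 ± 0.36 SE, adjusted p = 0.0458), but the call ended without any one of 23 libraries, and without the 5 it was 1.14 ± 0.12 (adjusted p = 7.81e-08). P2rx4, the most abundant member in WT before LPS, had 68.4, 66.5, 72.7 and 66.7 RPKM in dKO cells, against 47.8, 47.2, 50.1 and 44.4 RPKM in WT cells at 6 h, all higher in dKO (0.53 ± 0.15 SE, adjusted p = 0.0159), a call that ended without WT 6 h replicate 4 (adjusted p = 0.0537) and was 0.54 ± 0.07 (adjusted p = 1.04e-06) without the 5. P2rx1 and P2rx5 were lower in dKO at 2 h, with 1.87, 1.41, 1.54 and 2.14 RPKM in dKO cells, against 4.32, 4.11, 3.25 and 3.96 RPKM in WT cells for P2rx1 (-0.98 ± 0.20 SE, adjusted p = 0.00113). P2rx5 had 26.6, 15.4, 30.2 and 15 RPKM in dKO cells, against 37.4, 39.9, 41 and 39.1 RPKM in WT cells (-0.90 ± 0.18 SE, adjusted p = 0.00107). Without the 5 the 2 h differences were -1.0 ± 0.20 (adjusted p = 0.000535) for P2rx1 and -0.46 ± 0.10 (adjusted p = 0.00124) for P2rx5. With scaling the 6 h differences of P2rx1 (-0.50) and P2rx5 (-0.39) were not called.

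By class, no induced member was called higher in dKO at any time, and 0, 2, 2 and 4 were called lower at 0, 1, 2 and 6 h: Gpr84 and S1pr3 at 1 h, Gpr84 and P2rx1 at 2 h, and S1pr3 and P2rx1 at 6 h, and the count at 6 h also holds Gpr33 and Gpr4, for which it is a description. Of the lost members 1, 1, 4 and 2 were called higher and 2, 1, 0 and 1 lower. Of all genes 0.932%, 1.84%, 5.15% and 4.55% were called higher and 5.91%, 9.02%, 7.24% and 10.2% lower. The classes were picked from WT values, high after LPS for the induced and low for the lost. Induced members lower in dKO after LPS, and lost members higher, can therefore follow in part from that choice. Without the 5 libraries 0, 0, 1 and 1 induced members were higher and 3, 4, 4 and 6 lower, and 4, 5, 6 and 6 lost members were higher and 2, 2, 4 and 4 lower. Of all genes 6.75%, 9.8%, 9.29% and 13.9% were then higher and 19.4%, 29.4%, 23.8% and 33% lower. Gpr84 at 1 h differed by -1.37 ± 0.29 (SE, adjusted p = 0.00151), and S1pr3 by -1.13 ± 0.30 (SE, adjusted p = 0.0138), which was not called with scaling (-0.94). Without the 5 these were -1.12 ± 0.16 (adjusted p = 4.59e-06) and -1.10 ± 0.14 (adjusted p = 1.13e-06). The calls of Gpr84 at 2 h and of S1pr3 and P2rx1 at 6 h ended without any one of 2, 5 and 5 libraries. At 2 h Gpr15 had 1.37, 5.09, 1.04 and 4.25 RPKM in dKO cells, against 0.767, 0.678, 0.424 and 0.873 RPKM in WT cells (1.34 ± 0.36 SE, adjusted p = 0.0141) with no overlap, the library labelled dKO 2 h replicate 2 being the highest. Gpr15, Gpr171, P2rx7 and P2rx4 all lost the 2 h call without that library, at 1.03, 0.59, 0.75 and 0.30 (adjusted p = 0.0596, 0.0807, 0.0546 and 0.128). In the fit without all 5 dKO libraries, however, Gpr15, P2rx7 and P2rx4 were called higher in dKO at all 4 times, 2 h among them. Adora3 at 0 h had 2.05, 0.445, 1.93 and 2.18 RPKM in dKO cells, against 4.11, 4.71, 4.75 and 2.83 RPKM in WT cells (-1.19 ± 0.29 SE, adjusted p = 0.0101), and without dKO 0 h replicate 2 it was -0.83 (adjusted p = 0.0713).

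The LPS response itself differed between genotypes for few members. With all libraries 0, 0 and 2 members were called at 1, 2 and 6 h, where 0.0359%, 0.305% and 0.923% of all genes were, and 3, 14 and 9 had an unadjusted p below 0.05. Gpr141, an orphan receptor, had 68.1, 63.7, 60.4 and 39.2 RPKM at 6 h of LPS, against 37.7, 30.6, 29.1 and 32.3 RPKM at 0 h in dKO cells. In WT cells Gpr141 had 25.3, 29.7, 28.8 and 22.4 RPKM at 6 h of LPS, against 37.3, 36.2, 33.8 and 36.5 RPKM at 0 h. It was higher in every dKO library at 6 h and lower in every WT library, although with scaling the WT change was 0.24 and not called. The difference of responses was 1.24 ± 0.25 (SE, adjusted p = 0.01). It was 1.39 ± 0.12 (adjusted p = 2.56e-08) without the 5 libraries, and with scaling 1.20 (adjusted p = 0.0726). The other member was Gpr4, at -1.18 ± 0.30 (SE), which is no support, as Gpr4 entered the set through its WT 6 h libraries, and its call ended without any one of 26 libraries. At 2 h 2 members were called without dKO 2 h replicate 3 or dKO 6 h replicate 4, and at 1 h 1 member without dKO 6 h replicate 4. Without the 5, 3, 6 and 17 members were called (1.8%, 5.62% and 20.3% of all genes).

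P2ry14, a receptor of UDP-sugars, had the second highest resting level of the members in WT and was called higher after LPS in dKO cells at 6 h (0.76 ± 0.19 SE, adjusted p = 0.000824). At 6 h it had 136, 138, 132 and 70.6 RPKM in dKO cells, against 79.4, 93.7, 79.1 and 74.9 RPKM in WT cells. Replicate 4 of dKO 6 h lay with WT, and the other 3 were above all WT libraries. In WT its change was 0.04, or 0.72 with scaling. The difference of responses was 0.72 ± 0.27 (SE, adjusted p = 0.299) with all libraries and 0.94 ± 0.11 (adjusted p = 9.02e-07) without the 5.

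Of the late lost and other members, Gpr155, a lysosomal cholesterol sensor, averaged 5.67, 5.98, 3.33 and 1.48 RPKM in dKO and 4.61, 4, 2.23 and 0.634 RPKM in WT at 0, 1, 2 and 6 h. Gpr137b and its annotated pseudogene Gpr137b-ps, nearly identical in sequence so that reads could be split between them, averaged 4.47 and 7.43 RPKM in dKO and 4.24 and 8.42 RPKM in WT at 6 h. Gpr132, the most abundant before LPS of the proton-sensing family, averaged 46.6, 65, 50.9 and 69 RPKM in dKO and 58.8, 107, 67.8 and 100 RPKM in WT. P2ry12 and P2ry13, ADP receptors 5.39 kb apart, averaged 0.639 and 3.81 RPKM in dKO and 0.714 and 7.51 RPKM in WT at 1 h, where P2ry13 was lower in dKO, at -0.92 ± 0.16 (SE, adjusted p = 0.000237), or -0.75 ± 0.11 (adjusted p = 4.81e-06) without the 5. P2ry13, called lower in WT at 2 and 6 h, was at 0.34 and 0.20 with scaling, so its direction turned. Gpr107 and Gpr108, Golgi membrane proteins, were at 9.94 RPKM or more in every library.

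Genes around the receptors were taken by list, to be read against the shares and medians of all genes given above, with the list's median log2 change at 6 h. Of 17 genes of nucleotide breakdown and adenosine handling, 0, 2 and 3 were called higher and 5, 9 and 11 lower (median -1.06 at 6 h; without the 5, 2, 2 and 3 higher and 11, 12 and 12 lower) at 1, 2 and 6 h in dKO cells, and 0, 2 and 3 were called higher and 5, 12 and 12 lower (median -1.24 at 6 h) in WT cells. Entpd1 (CD39), which breaks down ATP, averaged 18.9, 13.4, 11 and 5.79 RPKM in dKO and 21.5, 16.6, 9.96 and 5.07 RPKM in WT at 0, 1, 2 and 6 h. Slc29a1, the nucleoside transporter that takes up adenosine, averaged 32.5, 22.3, 18.4 and 8.49 RPKM in dKO and 34.5, 20.1, 14.8 and 6.65 RPKM in WT. Enpp1, which also splits ATP, and Entpd5 averaged 0.66 and 0.978 RPKM in dKO at 6 h and 0.219 and 0.602 RPKM in WT. All 4 were called lower at 6 h in WT cells, at log2 changes from -2.30 to -1.94. Pnp and Nt5e are added here after their values were seen. Pnp, the phosphorylase that splits inosine, averaged 22.5, 50.4, 120 and 184 RPKM in dKO and 57.2, 84.3, 240 and 301 RPKM in WT, and was called higher at 6 h, at a log2 change of 3.00 in dKO and 2.38 in WT. Nt5e (CD73), which makes adenosine from AMP, averaged 8.58, 5.06, 3.63 and 0.655 RPKM in dKO and 5.26, 4.15, 1.64 and 0.132 RPKM in WT, and was called lower at 6 h, at -3.15 in dKO and -3.18 in WT. Between genotypes 0, 0, 0 and 0 were called higher in dKO and 2, 2, 3 and 1 lower (without the 5, 1, 1, 1 and 1 higher and 4, 5, 3 and 5 lower) at 0, 1, 2 and 6 h.

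Of 16 genes that make or clear lysophospholipids, 0, 2 and 3 were called higher and 5, 6 and 6 lower (median -0.47 at 6 h; without the 5, 0, 2 and 3 higher and 12, 9 and 9 lower) at 1, 2 and 6 h in dKO cells, and 0, 1 and 0 were called higher and 9, 11 and 10 lower (median -0.68 at 6 h) in WT cells. Sgpp1, a sphingosine 1-phosphate phosphatase, averaged 16.1, 8.65, 9.21 and 5.86 RPKM in dKO and 19.3, 8.47, 4.34 and 3.86 RPKM in WT at 0, 1, 2 and 6 h. Asah1, acid ceramidase, averaged 89.7, 64.1, 56.1 and 27.8 RPKM in dKO and 118, 83.1, 64.9 and 24 RPKM in WT. Gdpd3, which has lysophospholipase D activity and so can make lysophosphatidic acid, averaged 59.4 ± 7.7 RPKM in dKO and 3.6 ± 0.575 RPKM in WT at 0 h (SD, n = 4 each). Its log2 difference was 3.87, 4.77, 5.13 and 4.99 at 0, 1, 2 and 6 h, called at each. Of the whole list, Gdpd3 included, 2, 2, 4 and 4 were called higher in dKO and 1, 1, 0 and 1 lower (without the 5, 3, 3, 6 and 6 higher and 3, 4, 2 and 5 lower) at 0, 1, 2 and 6 h.

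Of the 3 oxysterol enzymes, Ch25h, which makes the precursor of the Gpr183 ligand, averaged 42.8, 125, 71.7 and 70 RPKM in dKO and 10.1, 154, 142 and 64.1 RPKM in WT at 0, 1, 2 and 6 h. The dKO mean at 0 h rests on the library labelled dKO 0 h replicate 2, and the SD of that group was 76.6 RPKM. Hsd3b7, which removes that ligand, averaged 30, 18, 17.6 and 13.9 RPKM in dKO and 38.1, 23.9, 14.4 and 18.2 RPKM in WT. None of the 3 was called between genotypes with all libraries.

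Downstream of the receptors, of 18 G protein subunits 0, 1 and 5 were called higher and 4, 8 and 9 lower (median -0.23 at 6 h; without the 5, 1, 2 and 6 higher and 11, 13 and 11 lower) at 1, 2 and 6 h in dKO cells, and 0, 2 and 5 were called higher and 10, 10 and 10 lower (median -0.22 at 6 h) in WT cells. Gng4 averaged 0.0371, 0.0575, 0.371 and 1.82 RPKM in dKO and 0.0362, 0.121, 0.499 and 5.08 RPKM in WT at 0, 1, 2 and 6 h, and was lower in dKO at 6 h, at a log2 difference of -1.47 (adjusted p = 0.00242, and 1.27e-06 without the 5). Gng2 averaged 16.5, 10.3, 9.04 and 4.48 RPKM in dKO and 18.9, 11.4, 6.96 and 3.31 RPKM in WT. Of 6 receptor kinases and arrestins, 0, 0 and 0 were called higher and 1, 4 and 5 lower (median -1.29 at 6 h; without the 5, 0, 0 and 1 higher and 4, 6 and 5 lower) in dKO cells, and 0, 0 and 1 were called higher and 0, 4 and 4 lower (median -1.17 at 6 h) in WT cells. Arrb1, an arrestin that uncouples receptors, averaged 68, 34.2, 26.6 and 7.06 RPKM in dKO (SD 31 at 2 h) and 69.6, 39.3, 15.1 and 3.99 RPKM in WT, and Adrbk1 was lower in dKO at 6 h, at a log2 difference of -0.72 (adjusted p = 0.000578, and 3.05e-08 without the 5).

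Of 10 RGS genes, whose products switch G proteins off, 2, 1 and 2 were called higher and 2, 5 and 5 lower (median -0.36 at 6 h; without the 5, 3, 2 and 2 higher and 4, 6 and 5 lower) in dKO cells after LPS, and 2, 2 and 2 were called higher and 2, 4 and 5 lower (median -0.45 at 6 h) in WT cells. Rgs10 averaged 45.4, 42.6, 44.8 and 58.5 RPKM in dKO and 79.7, 80, 76.4 and 122 RPKM in WT at 0, 1, 2 and 6 h, and Rgs12 1.28, 1.09, 1.1 and 1.23 and 3.04, 3.73, 2.91 and 3.76 RPKM. Both were called lower in dKO at all 4 times, with adjusted p-values at 0 h of 0.000199 for Rgs10 and 4.16e-05 for Rgs12, or 9.46e-07 and 1.97e-06 without the 5. Of 14 genes of cyclic AMP synthesis and breakdown, 1, 1 and 4 were called higher and 2, 7 and 8 lower (median -1.25 at 6 h; without the 5, 1, 2 and 4 higher and 7, 8 and 10 lower) in dKO cells, and 2, 1 and 4 were called higher and 3, 7 and 10 lower (median -1.40 at 6 h) in WT cells. The phosphodiesterase Pde2a averaged 6.98, 6.48, 4.14 and 2 RPKM in dKO and 8.24, 8.36, 6.42 and 0.909 RPKM in WT, and the adenylyl cyclase Adcy3 1.79, 0.963, 0.804 and 0.164 and 3.1, 1.53, 0.869 and 0.0945 RPKM.

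Among 21 receptors of lipid mediators and metabolites under other names, 7, 3 and 4 were called higher and 8, 9 and 11 lower (median -1.07 at 6 h; without the 5, 7, 8 and 8 higher and 10, 11 and 12 lower) in dKO cells, and 8, 8 and 3 were called higher and 7, 9 and 12 lower (median -1.34 at 6 h) in WT cells. Cmklr1, the chemerin receptor, averaged 64.2, 29.2, 31.6 and 16 RPKM in dKO and 53.5, 18.7, 11.4 and 8.51 RPKM in WT at 0, 1, 2 and 6 h, and Ffar2, a receptor of short-chain fatty acids, 5.86, 2.63, 3.36 and 1.08 and 18.3, 8.87, 4.02 and 2.06 RPKM. Ffar2 was lower in dKO at 0 h, at a log2 difference of -1.61 (adjusted p = 0.00118, and 1.87e-06 without the 5).

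Summed markers of other cells moved with genotype beside these receptors. Langerhans-type markers (1 of 3 reaching 1 RPKM in dKO and 3 of 3 in WT at 0 h) summed to 29.4 to 52.0 RPKM in dKO and 68.4 to 96.7 RPKM in WT at 0 h, with Cd207 at 0.704 RPKM or less in dKO and 1.44 to 10.5 RPKM in WT. Neutrophil markers (7 of 9 reaching 1 RPKM in dKO, 8 of 9 in WT) summed to 203 to 406 RPKM in dKO and 566 to 724 RPKM in WT at 0 h, eosinophil markers (7 of 8 and 6 of 8) to 680 to 860 and 928 to 1230 RPKM, and mast cell or basophil markers (4 of 9 and 5 of 9) to 3.99 to 7.40 and 7.77 to 13.6 RPKM. Plasmacytoid dendritic cell markers (2 of 4 in both) summed to 81.2 to 126 RPKM in dKO and 184 to 198 RPKM in WT. That sum rests on Bst2 and Tcf4, as Siglech was at 0.575 RPKM or less and Ccr9 at 0.236 RPKM or less in every library. Megakaryocyte or platelet markers (3 of 4 in both) summed to 133 to 191 RPKM in dKO and 42.7 to 70.2 RPKM in WT, with Pf4 at 66.1 to 186 RPKM and 18.3 to 67.3 RPKM over all times. Ppbp ranged over 0.84 to 5.52 RPKM in dKO and 0.271 to 2.39 RPKM in WT. Itga2b went the other way, with 1.04 to 2.99 RPKM in dKO and 1.62 to 4.87 RPKM in WT, and Gp9 was at 0.25 RPKM or less. The platelet and plasmacytoid sums thus rest on few genes and are no measure of such cells. Several of these sums also moved with LPS. Macrophage markers (9 of 9 reaching 1 RPKM in all groups at 0 and 6 h) summed to 841 to 1990 RPKM at 6 h, against 1330 to 1910 RPKM at 0 h, in dKO, and to 634 to 868 RPKM at 6 h, against 1650 to 1840 RPKM at 0 h, in WT. Langerhans-type markers summed to 3.17 to 10.5 RPKM at 6 h in dKO and 8.60 to 14.2 RPKM in WT, and plasmacytoid markers to 185 to 656 RPKM in dKO and 526 to 612 RPKM in WT, beside the 0 h sums above. Their part in the falls and rises of receptors after LPS, and in the differences of Lpar1, Lpar3, Gpr56, P2ry10 and the other receptors, was not tested.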

How the data were processed

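RNA from bone marrow-derived dendritic cells of both genotypes was sequenced as 32 libraries, 4 for each of 8 groups of genotype and LPS time, from TruSeq v2 libraries that do not keep the strand. CASAVA 1.8.2 and the build mm9 are named in the submitters' processing notes; the aligner settings and the gene annotation are not given in the sources used here. The authors deposited RPKM values per gene for each library, which were used as given, and beside them an unlabelled signal column of whole numbers, read here as bases aligned to the gene and used for depth alone (1.27 to 1.872 Gb in genes per library). RPKM values are not counts, so no count model was used. The 92 spike-in entries were left out of all tests.

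Genes at 1 RPKM or more in at least 4 libraries (11154 of 22216) were tested with limma 3.58.1 (R 4.3.3) on log2(RPKM + 0.5), with an intensity trend, 8 group means over all 32 libraries, 24 residual degrees of freedom, and Benjamini-Hochberg adjustment over all genes tested. The comparisons were each LPS time against 0 h within a genotype, successive times, dKO against WT at each time, and the difference of LPS responses. The fit was tested on simulated data. The members, the classes and the gene lists were chosen with earlier results of these data known. A few members and list genes are not reported here, and counts over the members and lists include them. Named members were the others of the 53, in full where they led a class, passed in 3 or more genotype comparisons, or had a response difference; list genes were up to 4 a list with the smallest adjusted p over the WT LPS and the genotype comparisons, and 2 named outside that rule. Same-numbered libraries were checked for pairing: 1 of 16 pairs of dKO and WT correlated above 0.1 (median 0.0518). Across times 16 of 24 WT pairs did (median 0.14), and 5 of 24 dKO pairs (median -0.0653), which include the 5 libraries that go against their labels. The main fit used no block, so any pairing of WT libraries across times is left out of it. Alternatives were other pseudocounts, scalings and filters, no trend, the compared groups alone, a replicate block, each library left out, and the 5 dKO libraries left out. Promoter letters are from RefSeq tables of GRCm38.p6, and no coordinate was moved between builds.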

Additional observations from a re-analysis of the deposited data

Results flagged for a closer look

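Among 405 groups of 4 values (a member in a group), 48 held a library whose gap to its nearest neighbour exceeded Dixon's critical value; chance flags about 1 in 20 groups. Of these, 35 fell in the 5 dKO libraries whose expression goes against their time label.

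Library dKO 2 h replicate 2 stood above the other 3 for Gpr137 (12.9 RPKM, others 5.78 to 6.51), Gpr146 (21.9 RPKM, others 0.736 to 1.63), Gpr180 (5.5 RPKM, others 0.551 to 1.15), Gpr34 (1.13 RPKM, others 0.0624 to 0.117), Gpr35 (13.3 RPKM, others 1.53 to 2.21), Gpr77 (2.52 RPKM, others 0 to 0.363), Lpar5 (2.96 RPKM, others 0 to 0.0782), Lpar6 (25 RPKM, others 0.787 to 0.801), P2rx7 (11.9 RPKM, others 1.66 to 2.77), P2ry1 (3.6 RPKM, others 0.241 to 0.423), P2ry6 (35.2 RPKM, others 2.34 to 3.05) and S1pr4 (2.19 RPKM, others 0.27 to 0.291). Library dKO 0 h replicate 2 stood above the other 3 for Adora2b (42.1 RPKM, others 9.34 to 13.2) and Gpr85 (21.1 RPKM, others 5.76 to 7.01) and below the other 3 for Adora3 (0.445 RPKM, others 1.93 to 2.18), Gpr108 (26.4 RPKM, others 36.9 to 37), Gpr137 (8.22 RPKM, others 14.1 to 15.3), Gpr146 (1.37 RPKM, others 22.8 to 24.2) and Lpar6 (2.97 RPKM, others 25.9 to 27.7). Library dKO 6 h replicate 4 stood above the other 3 for Gpr137b (6.82 RPKM, others 3.55 to 3.83), Gpr155 (3.15 RPKM, others 0.827 to 1.06), Gpr77 (0.262 RPKM, others 0 to 0.0163), Gpr85 (26.7 RPKM, others 15 to 15.9), P2rx5 (25.5 RPKM, others 17.1 to 18.1) and P2ry2 (8.09 RPKM, others 2.38 to 3.09) and below the other 3 for P2ry14 (70.6 RPKM, others 132 to 138). Library dKO 1 h replicate 2 stood above the other 3 for Adora2a (40.4 RPKM, others 18.8 to 21.1), Gpr126 (17.8 RPKM, others 5.22 to 5.93) and P2rx5 (29.6 RPKM, others 21.1 to 22.2) and below the other 3 for Gpr155 (3.38 RPKM, others 6.51 to 7.13), Gpr89 (3.75 RPKM, others 5.67 to 5.73) and P2rx7 (1.92 RPKM, others 4.46 to 4.69). Library dKO 2 h replicate 4 stood above the other 3 for Gpr141 (76 RPKM, others 34.5 to 35.9), Gpr33 (1.34 RPKM, others 0 to 0.16) and P2ry14 (154 RPKM, others 67.5 to 80.3).

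In dKO the other such values were Gpr137 in dKO 6 h replicate 1 (5.55 RPKM, others 6.54 to 6.74), Gpr65 in dKO 0 h replicate 3 (14.9 RPKM, others 11.7 to 12.2), Gpr97 in dKO 1 h replicate 1 (1.5 RPKM, others 0.716 to 0.791) and S1pr3 in dKO 1 h replicate 1 (6.91 RPKM, others 5.43 to 5.66). In WT the other such values were Adora2b in WT 0 h replicate 2 (11.4 RPKM, others 12.9 to 13.1), Gpr155 in WT 6 h replicate 4 (0.834 RPKM, others 0.562 to 0.578), Gpr33 in WT 1 h replicate 4 (0.304 RPKM, others at 0), Gpr55 in WT 6 h replicate 3 (0.737 RPKM, others 1.4 to 1.53), Gpr77 in WT 6 h replicate 4 (0.128 RPKM, others 0.0284 to 0.043), Gpr84 in WT 2 h replicate 4 (22.3 RPKM, others 17.2 to 18), Gpr85 in WT 6 h replicate 3 (18.1 RPKM, others 22.3 to 23), Lpar1 in WT 0 h replicate 3 (0.584 RPKM, others 0.28 to 0.327) and P2ry1 in WT 1 h replicate 3 (0.369 RPKM, others 0.765 to 0.845).

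The LPS response at 6 h differed between dKO and WT for Gpr141, by 1.24 on the log2 scale, and for Gpr4, by -1.18 (limma adjusted p = 0.0100 and 0.0478). The second ended without any one of 26 libraries and is no support, as Gpr4 entered the set through its WT 6 h libraries.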

How the results depend on the processing

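Of 285 called values of members, the call ended for 63 and the sign turned for 13 with median-of-ratios scaling, for 57 and 11 with quantile normalization, and the call ended for 70 with the compared groups alone, 25 with no filter, 17 with the replicate block, 6 with a pseudocount of 0.1, 3 with a pseudocount of 1, 1 with no intensity trend, 4 without the 5 dKO libraries, 0 of 203 with a filter at RPKM 5, and 65 on leaving out some single library. With scaling the turned log2 changes were, in dKO, Gpr108 0.11 and P2ry13 0.02 at 1 h and Gpr183 0.05, P2ry13 0.12 and P2ry10 0.07 at 6 h, and in WT, Gpr137b-ps 0.01, Gpr141 0.15, P2ry13 0.34, P2rx4 0.01 and Gpr97 0.07 at 2 h and Gpr141 0.24, Gpr107 0.06 and P2ry13 0.20 at 6 h. With quantile normalization they were, in dKO, P2ry13 0.15 at 1 h, 0.05 at 2 h and 0.29 at 6 h, with Gpr97 0.09 and P2ry10 0.06 at 6 h, and in WT, Gpr155 0.05, P2ry13 0.56, P2ry12 0.07, Gpr56 0.33 and Gpr97 0.43 at 2 h and P2ry13 0.37 at 6 h. Both scalings set the median change of all genes near 0 by construction.

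Counts of members that moved by over 1.5 times were these. With median-of-ratios scaling 21 members were called in dKO at 1 h, the response difference counted 1, 2 and 0 at 1, 2 and 6 h, 12 lost members were lower in dKO at 1 h, and 7 induced members higher at 2 h. With quantile normalization the response difference counted 1 and 1 at 1 and 2 h, 13 members were quickly lost, 12 lost members were lower in dKO at 1 h, and 8 and 7 induced members higher at 1 and 2 h. With a filter at RPKM 5, 3 and 8 members differed between genotypes at 0 and 1 h, 1 in response at 6 h, and 5 induced members were higher in dKO at 6 h. With the compared groups alone, 2 members differed between genotypes at 2 h, 20 and 0 were called in dKO at 1 and 2 h, 0 lost members were lower in dKO at 2 h, and 3 and 0 induced members higher at 1 and 2 h. A pseudocount of 0.1 left 1 response difference at 6 h. The replicate block left 1 response difference at 6 h and 2 induced members higher in dKO at 2 h. Its numbers may pair WT samples across times (16 of 24 pairs correlated above 0.1, against 5 of 24 in dKO). A threshold of 3-fold left 6 induced members, with 2 and 5 of them up in dKO at 1 and 6 h. Without the 5 libraries the genotypes differed for 21, 25, 27 and 30 members, the response for 3, 6 and 17, and 8 induced members were higher in dKO at 2 h. For these changes the cause was not tested, except that the filter and the left-out groups leave fewer genes or libraries.

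On leaving out single libraries, the members called between genotypes ranged over 7 to 10, 12 to 16, 8 to 16 and 9 to 18 at 0, 1, 2 and 6 h, after LPS over 17 to 40, 28 to 41 and 40 to 43 in dKO and 30 to 40, 45 to 49 and 41 to 44 in WT, and for the response difference over 0 to 1, 0 to 2 and 1 to 3. The lost class held 22 to 24 members, 9 to 23, 19 to 22 and 20 to 22 of them lower in dKO, and the induced class 10 to 11, with 3 to 8, 2 to 7 and 6 to 8 higher. RPKM gives no counts, so the counting error of low members such as Gpr4, Gpr33 and Lpar3 is unknown.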
